A study of Saccharomyces cerevisiae with 6 samples.

Results

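The aminoacyl-tRNA synthetases of *Saccharomyces cerevisiae* were examined as a set of 32 genes, of 6442 genes listed in the count table. The genes were chosen by name, from NCBI gene identifiers matched to the symbols of the R64 reference annotation, and the rule itself uses no measured value. Of the 32, 31 encode synthetases or synthetase subunits and ARC1 encodes a cofactor that binds 2 of them. They form 19 genes whose products serve the cytosol, or both the cytosol and the mitochondrion, and 13 genes whose products serve the mitochondrion only. All 32 had counts in all 6 libraries, from 406 to 24621 per library, and all passed the filter on low counts.

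Total RNA was sequenced from 3 libraries labelled S3 and 3 labelled H0, grown in flasks for 12 h at 30 °C. The groups were taken as yJBH012 (S3) and yJBH000 (H0), because the study's text describes the transcriptomes of these strains only. Both are haploid, carry the synthetic chromosome V (synV) and hold a carotenoid pathway integrated at CAN1 (YEL063C). yJBH012 is a single clone recovered from yJBH000 after SCRaMbLE, and lacks YEL014C and YEL013W (VAC8). In SCRaMbLE, Cre recombinase rearranges segments of the synthetic chromosome by recombination between its loxPsym sites. None of the 32 genes lies on chromosome V. The libraries of yJBH012 held 17675299 to 21568860 counts and those of yJBH000 held 23340054 to 25333938.

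Aminoacyl-tRNA synthetases join each amino acid to its tRNA and so supply the ribosome with charged tRNA. Yeast has separate translation systems in the cytosol and in the mitochondrion, where a small set of respiratory chain proteins is made. For many amino acids a different nuclear gene encodes the enzyme of each compartment, and the mitochondrial enzyme is imported. For alanine, glycine, histidine and valine a single gene makes both enzymes, through a longer protein with a mitochondrial targeting sequence and a shorter cytosolic protein that start at different codons. These 4 genes, ALA1, GRS1, HTS1 and VAS1, are called dual here. The synthetases also divide into class I and class II by the fold of their catalytic domain.

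The starts of the 4 dual genes are printed because they show how the same gene can supply both compartments, and so why these genes stand in no mitochondrial pair below. Capitals mark the start codons in the reference sequence (S288C, R64). In HTS1 (chrXVI:638957-639019, minus strand) and VAS1 (chrVII:672186-672326, plus strand) the first ATG opens the mitochondrial form. The next in-frame ATG follows after 20 codons in HTS1 and after 46 codons in VAS1. In ALA1 (chrXV:949107-949184, minus strand) and GRS1 (chrII:483365-483436, minus strand) the mitochondrial form is known to start at codons other than ATG, a pair of ACG codons from 25 codons upstream in ALA1 and a TTG codon 23 codons upstream in GRS1. No in-frame stop codon lies between these codons and the ATG.
HTS1: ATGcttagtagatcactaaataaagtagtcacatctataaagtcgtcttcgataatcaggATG
VAS1: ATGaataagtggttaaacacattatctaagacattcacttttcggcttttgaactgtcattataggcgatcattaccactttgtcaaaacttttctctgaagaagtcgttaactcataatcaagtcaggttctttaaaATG
ALA1: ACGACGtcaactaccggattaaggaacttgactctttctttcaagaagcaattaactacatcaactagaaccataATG
GRS1: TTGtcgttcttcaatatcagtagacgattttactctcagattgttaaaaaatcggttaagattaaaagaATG
Counts per gene do not separate the longer from the shorter form.

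VAC8 was counted 0, 0 and 1 times in the libraries of yJBH012, against 2532, 2473 and 2216 times in those of yJBH000, and YEL014C was counted 0 times in every yJBH012 library, against 84, 83 and 82 times in yJBH000. The libraries therefore carry the deletion that the study gives for yJBH012. The study reports loss of both genes in its other deep-sequenced SCRaMbLE haploids as well, so these counts do not single out yJBH012. Replicate 1 of yJBH000 stood apart from replicates 2 and 3 over the whole count table, and so also in the genes described here. Over all counted genes, chi-square per degree of freedom was 83.2 and 85.4 between replicate 1 and replicates 2 and 3. Between replicates 2 and 3 it was 7.13, and between yJBH012 libraries it was 11.8 to 14.5. Replicate 1 was the lowest yJBH000 library for 18 of 19 cytosolic or dual genes, and the highest for 11 of 13 mitochondrial-only genes. Over all 5904 tested genes replicate 1 was the lowest for 46.6% and the highest for 41.8%. The median log2 ratio of this replicate to the mean of the other two was -0.29 over the cytosolic or dual genes and 0.16 over the mitochondrial-only genes. Values without it are given beside the results whose call or size it changes most.

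The genes of the cytosol were counted far more than those of the mitochondrion in both strains. On the FPKM scale, which divides the count by gene length and library total, the mean level of the cytosolic or dual genes ran from 93.2 to 484 in yJBH012 with a median of 193, and from 74.4 to 595 in yJBH000 with a median of 272. The mitochondrial-only genes ran from 17.5 to 54.6 FPKM in yJBH012 with a median of 20.7, and from 14.0 to 41.8 FPKM in yJBH000 with a median of 26.5. The classes thus shared no FPKM level in either strain. The lowest cytosolic level was that of CDC60 (leucine) in both strains, and the highest was that of KRS1 (lysine) in yJBH012 and of ARC1 in yJBH000. All cytosolic or dual genes together took 0.859% ± 0.0181 of the counts in yJBH012 and 0.928% ± 0.0899 in yJBH000 (SD, n = 3 each), and the ranges met, since replicate 1 of yJBH000 had 0.824%. The mitochondrial-only genes took 0.0524% ± 0.00107 in yJBH012 and 0.0638% ± 0.00404 in yJBH000, with every yJBH012 library below every yJBH000 library.

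These shares rest on the total count, of which the 20 most counted genes took 14.7% to 15.4% in yJBH012 and 10.5% to 11.0% in yJBH000. The strains were therefore compared after adjustment of library sizes by the TMM method, and the adjusted values are given as CPM, counts scaled to a common library total. Tests used the quasi-likelihood method of edgeR, p-values were adjusted over the 5904 tested genes by Benjamini-Hochberg, fold changes carry the standard error (SE) of that fit, and a gene is said to rise or fall at an adjusted p under 0.05. RNA per cell was not measured, so a change in RNA per cell and a change in the share of cells in a given growth state cannot be told apart. The labels do not say whether the 3 libraries of a strain came from separate cultures, so the p-values measure the spread between these libraries.

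Of the 19 cytosolic or dual genes, 10 rose in yJBH012, 4 fell and 5 passed the test in neither direction. Over all tested genes 34.2% rose and 36.2% fell, 70.5% in either direction. Of the 13 mitochondrial-only genes, 3 rose, 3 fell and 7 did not pass. Without replicate 1 of yJBH000, 12 cytosolic or dual genes rose and 6 fell, and 5 mitochondrial-only genes rose and 4 fell. Over all genes 2270 rose and 2360 fell without that library. The median log2 fold change was 0.31 over the cytosolic or dual genes, 0.01 over the mitochondrial-only genes and -0.01 over all genes. The difference between the class medians, 0.30, was 0.11 without replicate 1 of yJBH000, and no test of it was made. More than 2-fold, VAS1 and GRS1 rose, where 10.7% of all genes did so, and none of the 32 fell, where 4.98% did. With the libraries scaled by total count alone, the median of all genes moved to -0.35, and 1144 of 5904 genes rose and 3401 fell. The cytosolic or dual genes then counted 6 higher and 7 lower and the mitochondrial-only genes 2 higher and 8 lower, while the class medians relative to all genes stayed at 0.32 and 0.02, the values they also had with TMM factors.

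**Figure D1:**
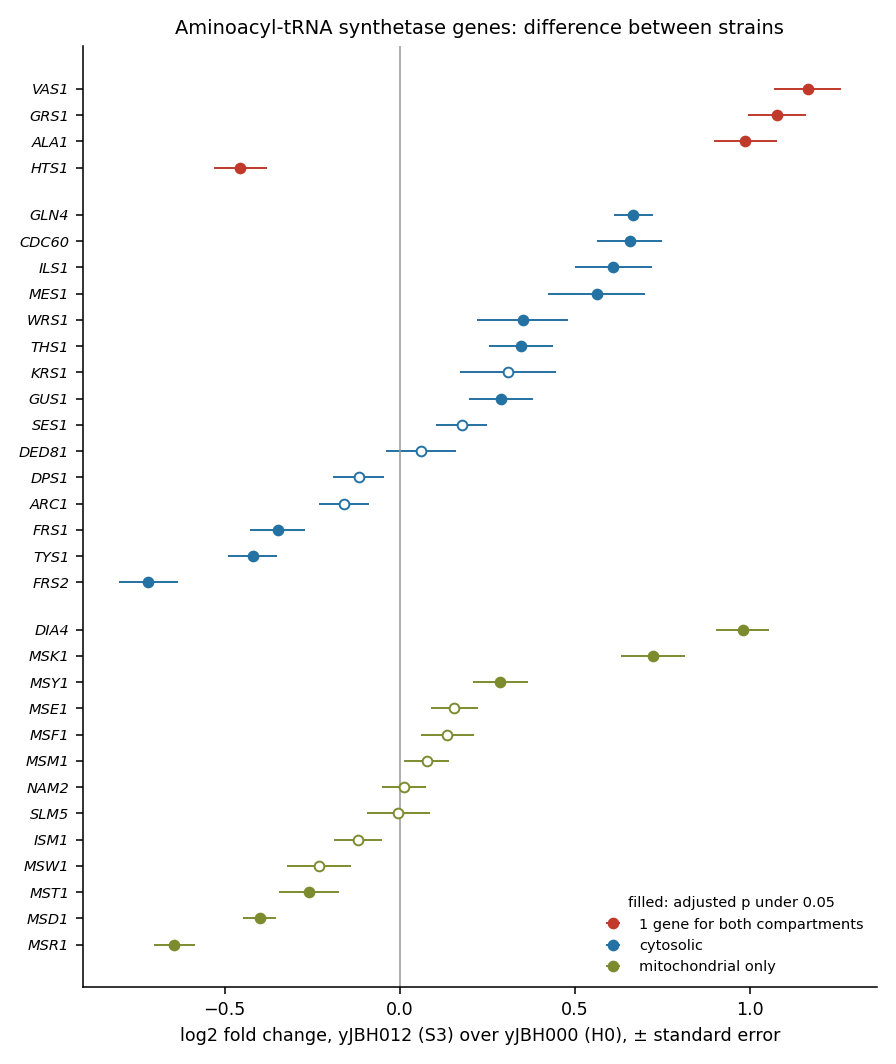
Log2 fold change of the 32 genes between yJBH012 (S3) and yJBH000 (H0) on the x axis, with bars for the standard error of the edgeR fit, grouped from top to bottom into dual, cytosolic and mitochondrial-only genes. Filled points passed an adjusted p of 0.05. The dual genes VAS1, GRS1 and ALA1 lie furthest to the right, at 1.17, 1.08 and 0.99, while the dual gene HTS1 lies at -0.45.

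With all libraries, the 3 largest increases of the set were those of 3 dual genes. Without replicate 1 of yJBH000 the mitochondrial-only gene DIA4, at 1.04, came between VAS1 (1.07) and GRS1 (0.999), with ALA1 at 0.90. VAS1 (YGR094W, chromosome VII), the valyl-tRNA synthetase, stood at 640, 627 and 617 CPM in yJBH012, against 241, 299 and 301 CPM in yJBH000. Its log2 fold change was 1.17 (standard error 0.10, adjusted p = 3.40e-05, edgeR quasi-likelihood test). GRS1 (YBR121C, chromosome II), the glycyl-tRNA synthetase, had 661, 658 and 652 CPM in yJBH012, against 277, 325 and 332 CPM in yJBH000. The strains were far apart for both genes relative to their spread, with a log2 fold change of 1.08 ± 0.08 (SE) for GRS1. ALA1 (YOR335C, chromosome XV), the alanyl-tRNA synthetase, had 466, 463 and 439 CPM in yJBH012, against 201, 241 and 249 CPM in yJBH000, a log2 fold change of 0.99 ± 0.09 (SE). All 3 genes rose under every scaling tried, with 0.83, 0.74 and 0.65 under total count scaling for VAS1, GRS1 and ALA1.

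The 4th dual gene went the other way. HTS1 (YPR033C, chromosome XVI), the histidyl-tRNA synthetase, had 286, 293 and 290 CPM in yJBH012, against 356, 419 and 417 CPM in yJBH000. It fell by 0.45 on the log2 scale (standard error 0.08, adjusted p = 0.00118, edgeR quasi-likelihood test), and the libraries of the strains did not overlap. Without replicate 1 of yJBH000 its log2 fold change was -0.53. A paralog of GRS1, GRS2 (YPR081C), which lies outside the 32 genes, also moved against its relative. GRS2 had 51.3, 54.3 and 56.3 CPM in yJBH012, against 77.5, 67.1 and 67.7 CPM in yJBH000, and fell by 0.39 on the log2 scale (standard error 0.07). GRS1 and GRS2 share 69.0% of 701 aligned bases, and how the authors' counting divided reads between similar genes is not stated.

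**Figure D2:**
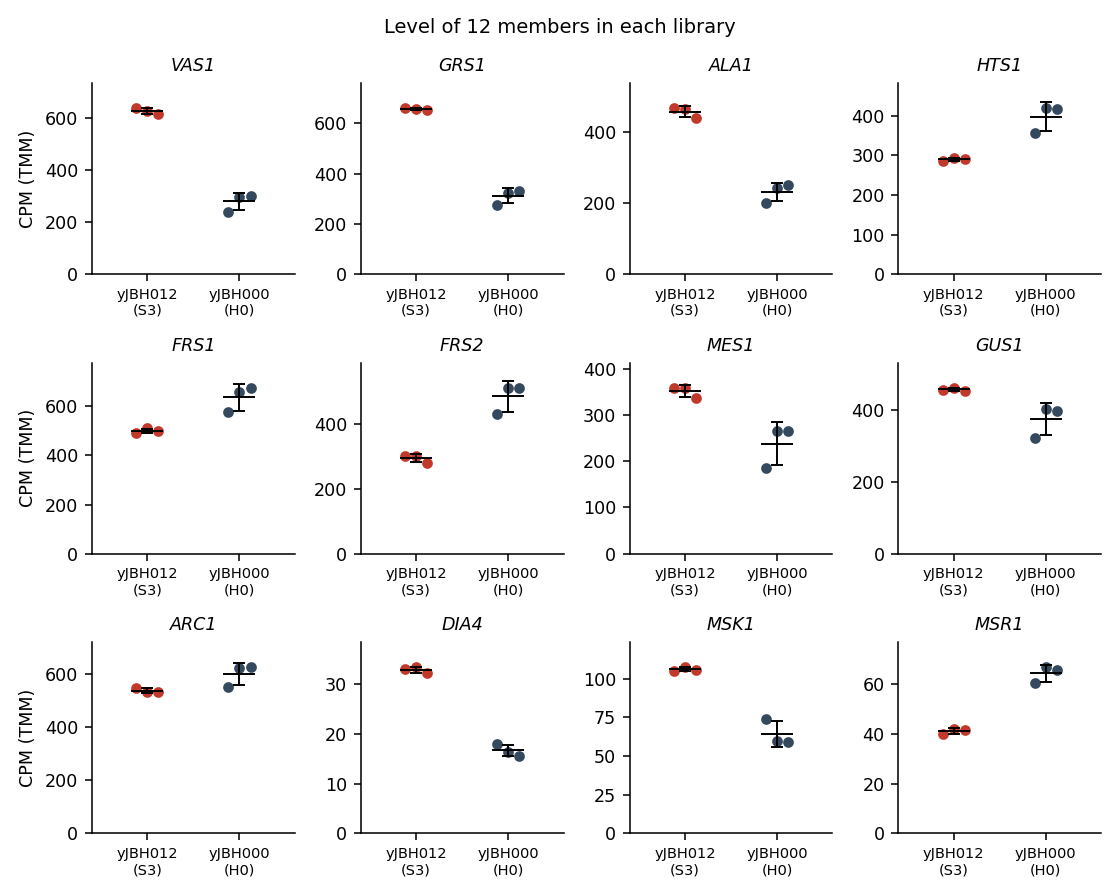
TMM-adjusted CPM (y axis, from 0) of 12 of the genes in each library of yJBH012 (S3, left) and yJBH000 (H0, right), with points for libraries 1 to 3 from left to right and bars for the mean and SD of 3 libraries. In VAS1, GRS1, ALA1, MES1, GUS1, DIA4 and MSK1 every yJBH012 library lies above every yJBH000 library. In HTS1, FRS1, FRS2, MSR1 and, narrowly, ARC1 every yJBH012 library lies below. The genes shown are the dual genes, ARC1 with its partners, and others picked from those that rose or fell. Over all tested genes 36.9% lay above and 38.6% below in this way.

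Among the 15 cytosolic genes, 7 rose, and the largest increases were shared by enzymes of glutamine, leucine, isoleucine and methionine. GLN4 (YOR168W), the glutaminyl-tRNA synthetase, had 301, 296 and 278 CPM in yJBH012, against 189, 182 and 180 CPM in yJBH000, with a log2 fold change of 0.67 ± 0.06 (SE). CDC60 (YPL160W), the leucyl-tRNA synthetase, had 348, 350 and 330 CPM in yJBH012, against 187, 229 and 236 CPM in yJBH000, with a log2 fold change of 0.66 ± 0.09 (SE). The libraries of the strains did not overlap for either gene. ILS1 (YBL076C), the isoleucyl-tRNA synthetase, had 608, 599 and 571 CPM in yJBH012, against 323, 415 and 427 CPM in yJBH000, with a log2 fold change of 0.61 that was 0.49 without replicate 1 of yJBH000. GLN4, CDC60 and ILS1 passed the test under every scaling tried.

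The smaller increases depended more on how the libraries were scaled. WRS1 (tryptophan) rose by a log2 fold change of 0.35 ± 0.13 (SE, adjusted p = 0.0434, edgeR quasi-likelihood test) and THS1 (threonine) by 0.35 (standard error 0.09). With total count scaling their log2 fold changes were 0.02 and 0.01, and neither passed. WRS1 also did not pass when any yJBH012 library was left out, and without replicate 1 of yJBH000 its value was 0.20. KRS1, the lysyl-tRNA synthetase, had 1007, 957 and 929 CPM in yJBH012, against 610, 870 and 854 CPM in yJBH000. All yJBH012 libraries were above, yet its log2 fold change of 0.31 did not pass (adjusted p = 0.0764, edgeR quasi-likelihood test), and without replicate 1 of yJBH000 it was 0.16 and passed (adjusted p = 0.0132). SES1 (serine) at 0.18, DED81 (asparagine) at 0.06 and DPS1 (aspartate) at -0.12 did not pass either. Without replicate 1 of yJBH000, SES1 passed at 0.12 and DPS1 at -0.18, while DED81 was at -0.04 and did not pass.

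Both subunits of phenylalanyl-tRNA synthetase fell, as did the tyrosyl-tRNA synthetase TYS1. FRS2 (YFL022C, chromosome VI), which encodes the alpha subunit, had 301, 303 and 280 CPM in yJBH012, against 431, 512 and 511 CPM in yJBH000. Its log2 fold change of -0.72 ± 0.08 (SE, adjusted p = 1.87e-04, edgeR quasi-likelihood test) was the largest decrease of the 32 genes. FRS1 (YLR060W, chromosome XII), which encodes the beta subunit, had 492, 509 and 498 CPM in yJBH012, against 575, 660 and 676 CPM in yJBH000, and fell by 0.35 on the log2 scale (standard error 0.08). The subunits form an enzyme with equal numbers of each, and their RNAs fell by unequal amounts. The ratio of FRS1 to FRS2 on the FPKM scale was 1.384, 1.424 and 1.502 in yJBH012, against 1.128, 1.089 and 1.119 in yJBH000, a ratio taken after the values of both genes were seen. TYS1 (YGR185C, chromosome VII) had 350, 376 and 359 CPM in yJBH012, against 447, 502 and 501 CPM in yJBH000, and fell by 0.42 on the log2 scale (standard error 0.07). FRS1, FRS2 and TYS1 fell under every scaling tried.

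Arc1p, the product of ARC1, binds the methionyl- and glutamyl-tRNA synthetases in the cytosol and brings tRNA to them. The RNAs of these 3 partners did not move alike. MES1 (YGR264C), for methionine, had 358, 359 and 337 CPM in yJBH012, against 184, 265 and 265 CPM in yJBH000, with a log2 fold change of 0.56 ± 0.14 (SE) that was 0.41 without replicate 1 of yJBH000. GUS1 (YGL245W), for glutamate, had 457, 463 and 453 CPM in yJBH012, against 323, 404 and 397 CPM in yJBH000, with a log2 fold change of 0.29 ± 0.09 (SE). ARC1 (YGL105W) had 548, 533 and 531 CPM in yJBH012, against 551, 621 and 626 CPM in yJBH000. Its log2 fold change of -0.16 did not pass the test (adjusted p = 0.0813, edgeR quasi-likelihood test), while without replicate 1 of yJBH000 it was -0.22 and passed. GUS1 did not pass when any yJBH012 library was left out, and without replicate 1 of yJBH000 its value was 0.19. With total count scaling MES1 (0.23) and GUS1 (-0.04) did not pass and ARC1 (-0.49) did. A ratio within a library does not depend on scaling. MES1 over ARC1 was 0.328, 0.338 and 0.318 on the FPKM scale in yJBH012, against 0.168, 0.214 and 0.212 in yJBH000. GUS1 over ARC1 was 0.443, 0.462 and 0.454 in yJBH012, against 0.311, 0.346 and 0.337 in yJBH000. Neither ratio overlapped between the strains. That follows from the CPM values above and is no separate result. Every yJBH012 library was above every yJBH000 library for MES1 and GUS1, and below, narrowly, for ARC1.

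By fold class, 7 of the 8 class I genes among the cytosolic or dual enzymes rose and TYS1 fell, with a median log2 fold change of 0.59. Of the 10 class II genes, 3 rose and 3 fell, with a median of 0.12. With total count scaling 4 of the 8 class I genes rose and 1 fell, and 2 of the 10 class II genes rose and 5 fell. Over all 5904 tested genes 1144 rose and 3401 fell with that scaling. Among the mitochondrial-only genes the medians were 0.01 over 7 class I genes and 0.07 over 6 class II genes. The classes were compared by these counts and medians alone, beside 34.2% of all genes that rose with TMM factors. Among the cytosolic or dual genes the split by class overlaps the split by gene length described below. All class I genes but WRS1 and TYS1 have at least 2000 bases, as do the 3 class II genes that rose, GRS1, ALA1 and THS1. The other class II genes are shorter, and the effects of class and length were not separated.

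The mitochondrial-only genes had their own increases and decreases. DIA4 (YHR011W, chromosome VIII), the likely mitochondrial seryl-tRNA synthetase, had 33.0, 33.4 and 32.2 CPM in yJBH012, against 17.9, 16.4 and 15.6 CPM in yJBH000. Its log2 fold change of 0.98 ± 0.08 (SE, adjusted p = 2.58e-05, edgeR quasi-likelihood test) was the largest of this class, although it had the lowest level of the 32 genes in yJBH000, 14.0 FPKM. MSK1 (YNL073W, chromosome XIV), for lysine, had 105, 108 and 106 CPM in yJBH012, against 74.3, 59.9 and 58.8 CPM in yJBH000, with a log2 fold change of 0.72 ± 0.09 (SE). DIA4 and MSK1 rose under every scaling tried. MSY1 (tyrosine) had 35.4, 35.1 and 37.2 CPM in yJBH012, against 32.6, 27.9 and 27.8 CPM in yJBH000, a log2 fold change of 0.29 that was -0.05 with total count scaling and did not pass there, nor without replicate 3 of yJBH012 (0.27).

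The largest mitochondrial decrease was that of MSR1. MSR1 (YHR091C, chromosome VIII), for arginine, had 39.9, 42.0 and 41.6 CPM in yJBH012, against 60.4, 66.9 and 65.7 CPM in yJBH000, a log2 fold change of -0.64 ± 0.06 (SE, adjusted p = 5.50e-05, edgeR quasi-likelihood test). MSD1 (YPL104W, chromosome XVI), for aspartate, had 43.9, 44.4 and 43.7 CPM in yJBH012, against 59.5, 57.0 and 57.6 CPM in yJBH000, and fell by 0.40 on the log2 scale (standard error 0.05). Both decreases held without any one library. MST1 (threonine) had 29.5, 31.6 and 34.0 CPM in yJBH012, against 40.2, 39.3 and 34.2 CPM in yJBH000. Its replicate 3 values nearly met, and its log2 fold change of -0.26 (adjusted p = 0.0288, edgeR quasi-likelihood test) did not pass without replicate 1 (-0.20) or 2 (-0.25) of yJBH012 or without replicate 2 of yJBH000 (-0.23). The other 7 genes, MSE1 (glutamate), MSF1 (phenylalanine), MSM1 (methionine), NAM2 (leucine), SLM5 (asparagine), ISM1 (isoleucine) and MSW1 (tryptophan), had log2 fold changes from -0.23 for MSW1 to 0.16 for MSE1 and did not pass. MSW1 had an adjusted p of 0.0553, and without replicate 1 of yJBH000 it passed at -0.30, as did MSE1 at 0.18 and MSF1 at 0.20.

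For 12 amino acids both a cytosolic and a mitochondrial enzyme are among the 32 genes, which allowed the compartments to be set against each other within a library. The FPKM ratio of the cytosolic to the mitochondrial enzyme, with the mean of FRS1 and FRS2 for phenylalanine, ran from 4.49 for leucine to 23.4 for asparagine in yJBH012, and from 2.86 for leucine to 27.5 for serine in yJBH000. In yJBH012 the ratio was above all yJBH000 libraries for 6 amino acids, below all of them for 3 and overlapping for 3. All tested genes, by CPM, lay above in 36.9% and below in 38.6% of cases. The strain difference thus had no common direction across amino acids, and the median change over the 12 was 0.21 on the log2 scale. The smallest p that an exact permutation test of 3 against 3 libraries allows, 0.1, was reached by 9 of the 12 ratios (two-sided, 0.133 after Benjamini-Hochberg adjustment over 12), so none passed at 0.05.

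The largest increases of the ratio were those of isoleucine and leucine. ILS1 over ISM1 was 9.54, 9.35 and 9.28 in yJBH012, against 4.29, 6.42 and 6.49 in yJBH000, a change of 0.74 on the log2 scale. CDC60 over NAM2 was 4.66, 4.54 and 4.27 in yJBH012, against 2.28, 3.14 and 3.28 in yJBH000, a change of 0.65. In both pairs the cytosolic gene rose and the mitochondrial gene did not pass the test. The threonine, tryptophan, methionine and aspartate ratios changed by 0.61, 0.60, 0.51 and 0.28, each without overlap. Without replicate 1 of yJBH000 the 6 increases were smaller, at 0.54 for isoleucine, 0.49 for leucine, 0.47 for threonine, 0.50 for tryptophan, 0.29 for methionine and 0.21 for aspartate.

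The largest decreases of the ratio were those of serine and tyrosine. SES1 over DIA4 was 16.14, 15.22 and 15.96 in yJBH012, against 23.34, 29.52 and 30.17 in yJBH000, a change of -0.80 on the log2 scale. TYS1 over MSY1 was 12.3, 13.4 and 12.0 in yJBH012, against 17.1, 22.5 and 22.5 in yJBH000, a change of -0.71. In the serine pair the mitochondrial gene rose alone, while in the tyrosine pair the cytosolic gene fell and the mitochondrial gene rose. The phenylalanine ratio changed by -0.65, with a cytosolic enzyme that fell and MSF1 that did not pass. The lysine ratio was 9.36, 8.66 and 8.54 in yJBH012, against 8.01, 14.1 and 14.1 in yJBH000, so that replicate 1 of yJBH000 alone made the strains overlap. Without that library its change was -0.68 instead of -0.40. The glutamate and asparagine ratios overlapped between the strains, with changes of 0.14 and 0.07 that were 0.013 and -0.13 without replicate 1 of yJBH000.

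**Figure D3:**
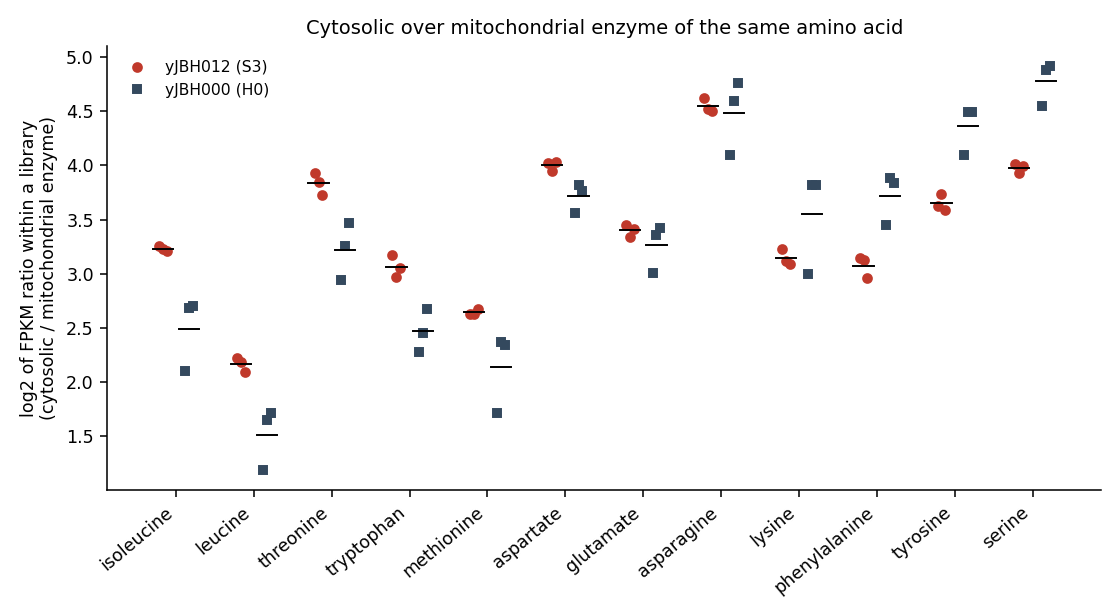
Log2 of the FPKM ratio of the cytosolic to the mitochondrial enzyme (y axis) for 12 amino acids, ordered from the largest increase to the largest decrease. Each point is a library of yJBH012 (S3, circles, left) or yJBH000 (H0, squares, right), and lines mark the means. The lowest square of isoleucine, leucine and methionine is replicate 1 of yJBH000, and the circles lie above the squares from isoleucine to aspartate and below them from phenylalanine to serine.

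Among the cytosolic or dual genes the log2 fold change was higher in longer genes. The 9 genes of at least 2000 bases all rose, with log2 fold changes from 0.29 for GUS1 to 1.17 for VAS1 and a median of 0.66. Of the 10 shorter genes, WRS1 rose and 4 fell, and the median was -0.14. With total count scaling 6 of the 9 long genes rose and 0 fell, GUS1 being at -0.04, and 0 of the 10 shorter genes rose and 7 fell. Over all 5904 tested genes 1144 rose and 3401 fell with that scaling. The limit was chosen after the values were seen, and GRS1, with 2004 bases, lies just inside it. The split by length overlaps that by fold class given above. Over the 19 genes, which share the same 6 libraries, Pearson's r of length with log2 fold change was 0.73 and Spearman's rho was 0.76. Over the 13 mitochondrial-only genes r was -0.24 and rho was -0.25, and over all 5904 tested genes r was -0.03 and rho was -0.04. Over all tested genes of at least 2000 bases, 466 of 1323 rose and 451 fell with TMM factors. When the trend with length over all genes was removed from each library, the r of the 19 genes was 0.71. Of the synthetase genes outside the set, CRS1 has 2304 bases and fell, so length did not order every synthetase.

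**Figure D4:**
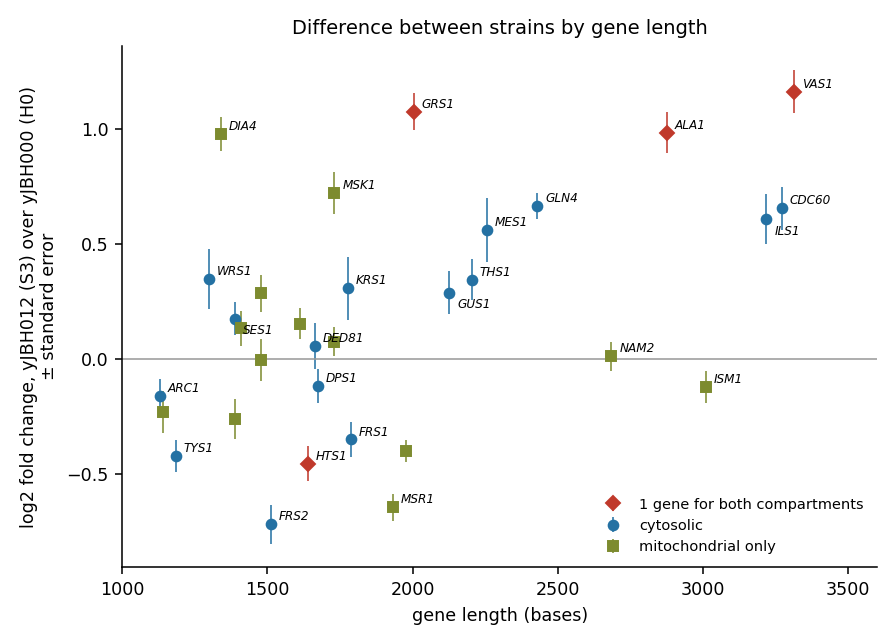
Log2 fold change between yJBH012 (S3) and yJBH000 (H0), with the standard error, against gene length in bases for dual genes (diamonds), cytosolic genes (circles) and mitochondrial-only genes (squares). The 9 dual or cytosolic genes of at least 2000 bases lie above 0 with TMM factors (GUS1 at -0.04 with total count scaling), and the long mitochondrial genes NAM2 and ISM1 lie at 0.01 and -0.12.

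The promoters were searched because part of the cytosolic set moved together and the synthetase genes are known as targets of Gcn4, the activator made when uncharged tRNA accumulates. The window ran from 250 bases before to 50 bases after the A of the annotated start codon. The letters TGACTC, the core of the Gcn4 motif, or GAGTCA on the other strand, occurred in 7 of 19 cytosolic or dual genes, in 0 of 13 mitochondrial-only genes and in 7.98% of 6001 promoters of protein-coding genes. The 7 genes were VAS1, ALA1, ILS1, GLN4, THS1, KRS1 and ARC1. Of these, 5 rose and KRS1 and ARC1 did not pass the test, with a median log2 fold change of 0.61. Of the 12 without the letters, 5 rose and 4 fell, with a median of 0.12. Over all tested genes 34.2% rose and 36.2% fell. This split overlaps that by gene length. The 5 genes with the letters that rose have at least 2000 bases, and KRS1 and ARC1 are shorter. GRS1, CDC60, MES1 and GUS1 also have at least 2000 bases, lack the letters and rose. The effects of the letters and of length were not separated. GATGAG, the core of the PAC motif of ribosome biogenesis genes, or CTCATC on the other strand, occurred in 5 of 19, in 1 of 13 and in 20.4% of all promoters. The TGACTC match of GLN4 lies within its coding sequence and the GAGTCA match of ARC1 at 6 bases before the start codon. The GATGAG matches of THS1 and WRS1 begin 1 base before the start codon, so their letters include the ATG. A match of letters is a description of the sequence and does not show that a factor binds.

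The windows of 3 genes that rose and hold the letters before the start codon are printed with both motifs in capitals, from the R64 reference. They are VAS1 (chrVII:671936-672235, plus strand), ALA1 (chrXV:949060-949359, minus strand) and ILS1 (chrII:84212-84511, minus strand). The match begins 98 bases before the start codon in VAS1, 47 bases in ALA1 and 102 bases in ILS1, and that of ALA1 lies inside the stretch that is translated in the mitochondrial form.
VAS1: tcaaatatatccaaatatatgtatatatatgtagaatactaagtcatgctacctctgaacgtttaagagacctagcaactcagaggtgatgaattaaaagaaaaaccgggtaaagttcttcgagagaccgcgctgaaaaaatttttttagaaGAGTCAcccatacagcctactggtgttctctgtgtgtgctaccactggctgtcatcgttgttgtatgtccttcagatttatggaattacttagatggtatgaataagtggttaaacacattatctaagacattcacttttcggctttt
ALA1: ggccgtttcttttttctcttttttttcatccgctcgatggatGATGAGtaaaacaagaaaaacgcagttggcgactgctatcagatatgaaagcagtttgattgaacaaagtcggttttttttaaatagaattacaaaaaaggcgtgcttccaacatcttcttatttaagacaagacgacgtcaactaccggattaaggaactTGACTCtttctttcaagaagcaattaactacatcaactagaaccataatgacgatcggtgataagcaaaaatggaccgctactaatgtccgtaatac
ILS1: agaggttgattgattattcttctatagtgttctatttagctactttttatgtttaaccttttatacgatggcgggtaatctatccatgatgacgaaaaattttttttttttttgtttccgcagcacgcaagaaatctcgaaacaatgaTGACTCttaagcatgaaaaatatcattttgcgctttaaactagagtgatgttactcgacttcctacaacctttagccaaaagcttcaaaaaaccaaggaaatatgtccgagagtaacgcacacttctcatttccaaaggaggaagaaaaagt

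The other synthetase genes, which were not among the 32, also went both ways. YDR341C, the cytosolic arginyl-tRNA synthetase, had 394, 397 and 391 CPM in yJBH012, against 173, 225 and 224 CPM in yJBH000, a log2 fold change of 0.93 ± 0.10 (SE), while its mitochondrial relative MSR1 fell. The 2 genes share 66.8% of 1417 aligned bases. YHR020W (proline) rose by 0.36 and AIM10, a likely mitochondrial prolyl-tRNA synthetase on chromosome V, by 0.45. CRS1 (cysteine) fell by 0.34 on the log2 scale. Of these 5 genes, GRS2 included, 3 rose and 2 fell.

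Genes acting before and after the charging of tRNA were counted in lists. GCN4, whose translation is raised when uncharged tRNA accumulates, had 1027, 1050 and 964 CPM in yJBH012, against 662, 759 and 770 CPM in yJBH000, with a log2 fold change of 0.47 ± 0.08 (SE). RNA level is only part of its control. GCN2, the kinase that senses uncharged tRNA, rose by 0.38 and GCN1, its activator, by 1.03. Of the 6 genes of this response, 4 rose and 2 fell. The 4th to rise was GCN20, by 0.54. The 2 that fell were GCN3, at -0.49, and YIH1, an inhibitor of Gcn2, at -0.97. Of 7 genes that deliver charged tRNA to the ribosome, 5 rose, CAM1 did not pass and TUF1, the mitochondrial elongation factor, fell by 0.17 on the log2 scale. The elongation factor genes TEF1 (1.29), TEF2 (1.02) and YEF3 (1.42) rose more than 2-fold. TEF1 and TEF2 encode the same protein, so their reads may not be separable. Of 15 genes of tRNA maturation and export, 6 rose and 2 fell, with a median of 0.15. Of the 4 genes for mitochondrial glutaminyl-tRNA amidation and initiator formylation, FMT1 rose and 3 did not pass.

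The ribosomal protein genes of the same compartments are given for comparison. Of 138 cytosolic ribosomal protein genes, 135 rose and 0 fell, with a median log2 fold change of 1.21, against 10 risen and 4 fallen of 19 cytosolic or dual synthetase genes. Of the 56 mitochondrial ribosomal protein genes, 21 rose and 23 fell, with a median of 0.02, which was close to the 0.01 of the mitochondrial-only synthetase genes. No test of these lists against each other was made.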

How the data were processed

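Reads were counted per gene by the authors and deposited as raw counts and as FPKM values. The submitters' processing notes name HTSeq 0.6.1 and DESeq 1.18.0. The aligner, genome build and use of strand are not given in the sources used here. The deposited FPKM values equalled the counts divided by library total and by a gene length that was the R64 exon length for 99.9% of 6237 genes (within 0.5 bases) and for all 32 members. Of 6442 identifiers, 6436 matched the R64 gene table. None of the 32 overlaps another gene of that annotation. No libraries were copies of each other (chi-square per degree of freedom between replicates from 7.13 to 85.4).

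Under R 4.3.3, counts were filtered and tested in edgeR 4.0.16 (filterByExpr with default settings, TMM factors, glmQLFit, glmQLFTest, Benjamini-Hochberg adjustment over 5904 genes, no replicate block) and the procedure was tested on simulated data. Standard errors came from the same fit. Alternatives used DESeq2 1.42.0, limma 3.58.1 (voom, and log2(FPKM + 1) or log2(FPKM + 0.1)), other factors and filters, a replicate block, a fold limit and each library left out. Removal of the trend with gene length (loess span 0.4) was added after the data were seen. Similar genes were found with BLAST 2.17.0 (alignments of at least 100 bases). Members and lists were chosen with earlier results of these data known. All 32 members are named, with library values for the largest changes of each class, the dual genes, ARC1 and its partners, and the extreme ratios. Of the other lists, GCN4, GCN2 and the synthetases are named, as are genes beyond 2-fold. CAM1, TUF1, YIH1, GCN3, GCN20 and FMT1 were added after their values were seen.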

Additional observations from a re-analysis of the deposited data

How the results depend on the processing

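With total count scaling, limma on log2(FPKM + 1) and limma on log2(FPKM + 0.1), the median of all genes was -0.35, -0.33 and -0.34. Under each of these 3 settings the cytosolic or dual genes counted 6 higher and 7 lower, and the mitochondrial-only genes 8 lower. The class medians were -0.0226, -0.0073 and -0.0073 for cytosolic or dual genes and -0.32, -0.31 and -0.32 for mitochondrial-only genes. Over all genes 1144, 1147 and 1143 were higher and 3401, 3383 and 3382 lower. GUS1 turned to -0.0437, -0.0377 and -0.0379, MSY1 to -0.0478, -0.0411 and -0.0426, MSM1 to -0.26, -0.25 and -0.26, DED81 to -0.27 in all 3, and NAM2 to -0.32, -0.31 and -0.32. KRS1, SES1, MSE1 and MSF1, which did not pass with TMM factors, also turned to values below 0 in all 3 and did not pass there (total count values -0.0226, -0.16, -0.18 and -0.20). With upper quartile factors the mitochondrial-only median was -0.0273. Requiring a log2 fold change beyond 1 as well left 2 cytosolic or dual genes higher, 0 lower and 0 mitochondrial-only genes in either direction, and over all genes 630 higher and 294 lower.

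With each library left out in turn, the cytosolic or dual genes counted 8 to 12 higher and 4 to 6 lower, and the mitochondrial-only genes 2 to 5 higher and 2 to 4 lower. Over all genes 1853 to 2270 were higher and 1907 to 2360 lower. The cytosolic or dual median ran from 0.19 to 0.39, the mitochondrial-only median from -0.0227 to 0.0832, and their difference from 0.11 to 0.40. The extremes 12, 6, 5, 4, 0.19 and 0.11 came without replicate 1 of yJBH000. The asparagine ratio ran from -0.13 to 0.21, and the difference in share of counts from -0.120 to -0.0421 percent for cytosolic or dual genes and from -0.0130 to -0.00914 percent for mitochondrial-only genes. The cause of these shifts was not tested.

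Apart from total count and FPKM settings, 21 of the 32 members kept their side of the threshold under all 15 settings. A replicate block gave 10 and 4 cytosolic or dual and 3 and 3 mitochondrial-only genes higher and lower. Under it MST1 no longer passed (adjusted p = 0.0686, edgeR) and MSW1 did (adjusted p = 0.0332, edgeR). Same-numbered libraries deviated with r of -0.01, 0.08 and 0.08, so the numbers were not taken as pairs. The depth left every member with at least 406 counts in each library.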
